A study of Mus musculus with 2 samples.

Results

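The genes that cells switch on to enter S phase and to copy their DNA were examined in the lungs of mice with the genotypes *Pclaf* WT and *Pclaf* KO. A fixed list of 41 gene symbols was matched to the symbols in both count matrices, and all 41 were found among the 31053 genes listed. The 2 libraries, 1 per genotype, came from mice of 8 to 10 weeks that received bleomycin, given as 1.35 U/kg in the deposited design, 1 week before the lungs were taken. Cells had been sorted for *Epcam* without Cd31 or Cd45 and run as 10x Genomics 3′ libraries. The methods describe the KO mice only as an established knockout line and all animals as male, and the controls are *Pclaf* WT. The number of mice behind each library, and the part of *Pclaf* that is removed, are not given in the sources used here. With 1 library per genotype no test between genotypes could be made. Intervals below are 95% intervals for counting error alone and do not cover differences between mice or between cells.

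Before S phase, CDC6 and its partners load the MCM2-7 ring onto origins, and geminin (*Gmnn*) keeps this from happening again once copying has begun. CDC45 and the GINS complex turn the loaded ring into the active helicase. DNA polymerase alpha with its primase starts each strand, replication factor C loads the PCNA clamp, and thymidylate synthase and ribonucleotide reductase supply the nucleotides. Most of these genes are under the control of E2F factors, and in resting cells the DREAM complex holds many of them off. PCLAF, the product of the targeted gene, binds the PCNA clamp. In the lung, alveolar type 2 (AT2) cells are the alveolar cells that divide after injury and give rise to type 1 (AT1) cells through a Krt8-high transitional state.

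The library labelled WT held 98171818 unique molecular identifiers (UMIs) on 30669 barcodes and the library labelled KO 111267567 on 17172, with medians of 2105 and 5682 UMIs per barcode, and 163 barcode sequences occurred in both. Because depth differed, every kept cell was thinned at random to 2000 UMIs before it was classified, which left 15889 WT and 13397 KO cells. A cell was called cycling when at least 2 of 12 mitotic genes, none of them among the 41, had a UMI, and non-cycling when none had. Lineages were gated on marker genes, and alveolar cells are AT2, AT1 and Krt8-high cells together. In spite of the sort, most classified WT cells were immune, endothelial or mesenchymal. Alveolar cells numbered 911 in WT and 8555 in KO. Of these, 25 in WT (2.74%, interval 1.78 to 4.02) and 177 in KO (2.07%, 1.78 to 2.39) were cycling. The WT values for cycling alveolar cells below rest on these 25 cells, or on fewer where the cells kept or the gate were changed as stated. The cycling alveolar cells were 22 AT2 and 3 Krt8-high cells in WT, and 167 AT2, 3 AT1 and 7 Krt8-high cells in KO. *Xist* without a Y-linked transcript was seen in 15.9% of kept WT cells and 49.1% of KO cells, although the methods name males.

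*Pclaf* itself was not lower in the cycling alveolar cells of the library labelled KO. It had 20 UMIs in WT, which is 117 counts per 1000000 UMIs of those cells (CPM), and 209 UMIs in KO, which is 122 CPM. The log2 ratio, KO over WT, was 0.05 (interval -0.61 to 0.79). In non-cycling alveolar cells it was -1.26 (-2.07 to -0.35), and in cycling macrophages and monocytes -1.28 (-1.80 to -0.80). The transcript ends read here may lie outside the removed part, so these counts do not settle the genotype of the cells, and the libraries are called by their labels throughout.

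Cycling alveolar cells of the library labelled KO, the largest such group, carried far more replication transcript than non-cycling ones. The summed level of the 41 genes was 336 CPM in the 8027 non-cycling cells and 2486 CPM in the 177 cycling cells, a log2 ratio of 2.89 (2.84 to 2.94). Every one of the 41 was at a higher level in the cycling cells. Of the 31 with at least 5 UMIs expected in the smaller sum, 31 were higher by 1 log2 unit or more, against 7.0% of all 11193 genes with that many, and their median log2 ratio was 2.99 against 0.02 for all genes. The other 10 were at log2 ratios between 2.37 for *Ung*, which encodes the uracil glycosylase, and 7.56 for *E2f8*, a repressor of the E2F family. The gate was set on mitotic genes that share their cell cycle with the members, so a direction toward the cycling cells was built into this comparison, and the sizes are the description. The minimum works on the pooled count, and *Rrm2* (55 non-cycling and 220 cycling UMIs) and *Uhrf1* (118 and 144) passed it through their cycling UMIs. The count and the median of members that passed thus depend on the minimum. The 10 members left out had log2 ratios of 2.37 to 7.56, against that median of 2.99. The summed level of all 41 does not use the minimum.

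**Figure D1:**
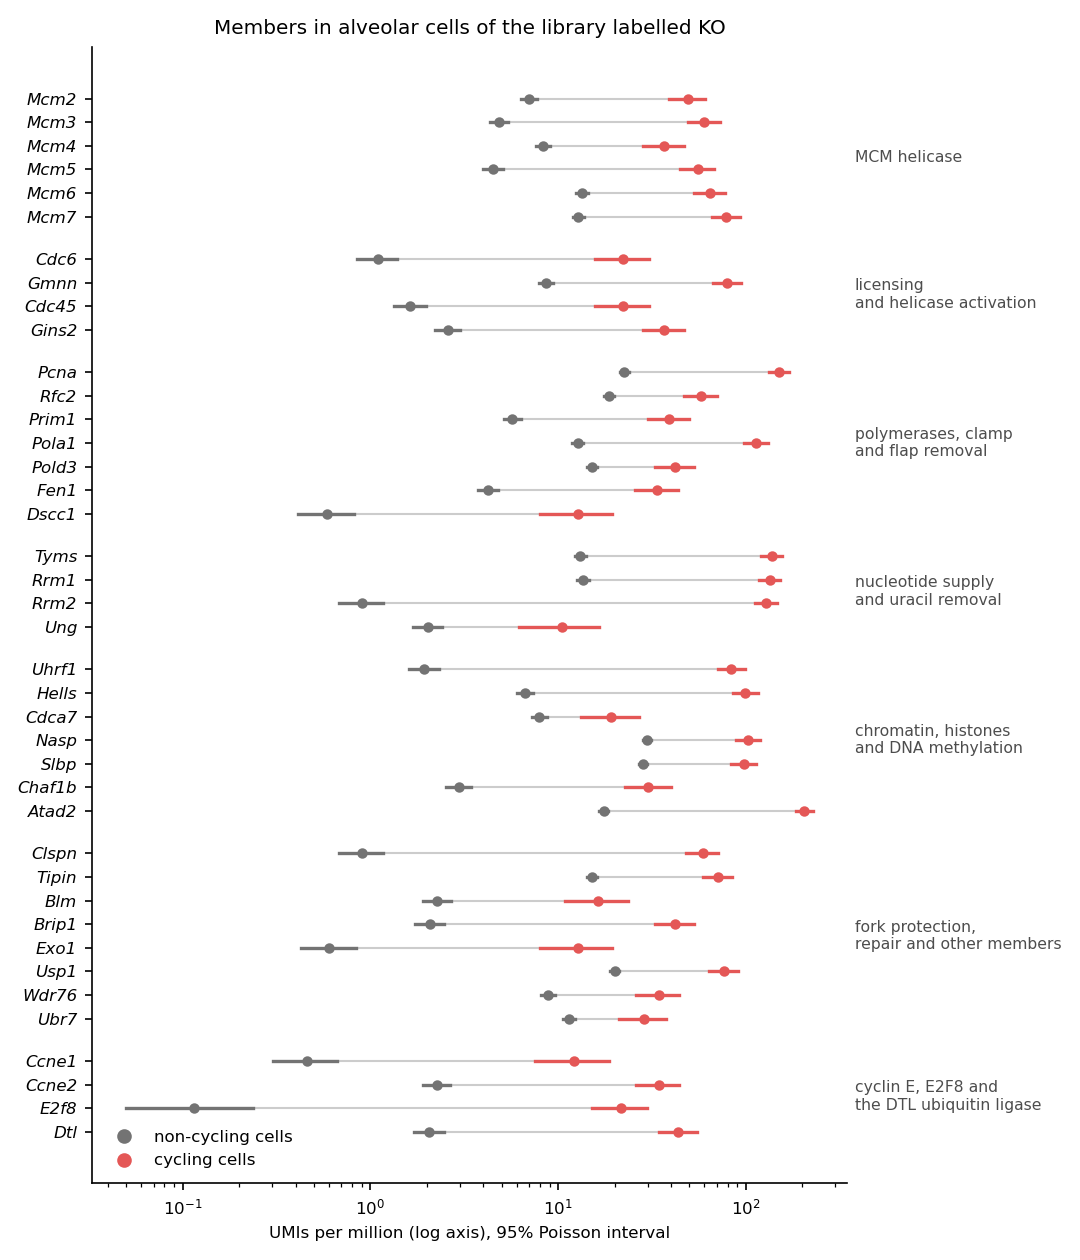
CPM, on a log axis, of 40 of the 41 genes in non-cycling (grey) and cycling (red) alveolar cells of the library labelled KO, grouped by role, with 95% Poisson intervals as bars. Every cycling point lies to the right of its grey partner, with the widest gaps for *E2f8* and *Rrm2* and the narrowest for *Cdca7* and *Ubr7*.

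The MCM2-7 helicase genes were all higher in cycling cells, by unequal amounts. Their sum was 50.9 CPM in non-cycling and 343 CPM in cycling KO alveolar cells, a log2 ratio of 2.75 (2.62 to 2.88), and the 6 single ratios ran from 2.14 (1.74 to 2.52) for *Mcm4* to 3.63 (3.29 to 3.95) for *Mcm3*. *Mcm2*, *Mcm5*, *Mcm6* and *Mcm7* lay between these. The licensing and activation genes *Cdc6*, *Gmnn*, *Cdc45* and *Gins2* went from 13.9 to 160.5 CPM in sum, a log2 ratio of 3.53 (3.33 to 3.73).

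Ribonucleotide reductase, the enzyme that makes deoxynucleotides, showed the sharpest contrast between its own subunits. *Rrm2* (chromosome 12, 24708241 to 24714146, plus strand, GRCm38), the small subunit that is made in S phase and broken down afterwards, went from 0.898 to 128 CPM, a log2 ratio of 7.15 (6.72 to 7.61). *Rrm1* (chromosome 7, 102441695 to 102469771), the large subunit, was at nearly the same cycling level, 134 CPM, but at 13.6 CPM in non-cycling cells, and its ratio was 3.30 (3.09 to 3.51). *Tyms*, thymidylate synthase (chromosome 5, 30058202 to 30073617), went from 13.1 to 137 CPM.

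Among the polymerase and clamp genes, *Pcna* (chromosome 2, 132249162 to 132253314), the sliding clamp, was at 22.5 CPM in non-cycling and 151 CPM in cycling cells, a log2 ratio of 2.74 (2.54 to 2.93). *Pola1* (chromosome X, 93304767 to 93632155), the catalytic subunit of polymerase alpha, went from 12.7 to 113 CPM. *Pold3* (chromosome 7, 100082111 to 100121565), an accessory subunit of polymerase delta, stood among the 3 members with the smallest ratio, 1.46 (1.10 to 1.81). The clamp loader gene *Rfc2* had a ratio of 1.62, and *Prim1* (primase), *Fen1* (flap endonuclease) and *Dscc1*, part of an alternative clamp loader, had 2.77, 2.99 and 4.44.

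The chromatin members ranged widely in their level in non-cycling cells. *Nasp* (chromosome 4, 116601052 to 116627941), a histone chaperone, was at 29.6 CPM and *Slbp* (chromosome 5, 33634952 to 33652574), which binds the stem-loop of histone mRNA, at 28.2 CPM in non-cycling cells, the 2 highest levels of the 41 there. Their ratios were 1.80 and 1.79. *Uhrf1* (chromosome 17, 56303321 to 56323486), which brings DNA methyltransferase to new DNA, went from 1.93 to 83.8 CPM, a ratio of 5.44 (5.08 to 5.80). *Hells* (chromosome 19, 38930915 to 38971051), a chromatin remodeler, and *Chaf1b*, a subunit of the assembly factor CAF-1, had ratios of 3.91 and 3.35. *Atad2* (chromosome 15, 58094044 to 58135082), a bromodomain ATPase, had the most UMIs of all members in cycling cells, 352, at 205 CPM against 17.4. *Cdca7* (chromosome 2, 72476159 to 72486893), a partner of HELLS, had the smallest ratio, 1.27 (0.72 to 1.78). At 2000 UMIs per cell, *Cdca7* was seen in 1.13% of cycling cells (0.14 to 4.02) and 1.33% of non-cycling cells (1.09 to 1.61), so its share of positive cells does not separate the 2 states.

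Of the genes for fork protection and repair, *Clspn* (claspin, of the replication checkpoint) was nearly absent outside cycling cells, at 0.898 CPM against 58.7. *Brip1*, a helicase, had a ratio of 4.34, and *Exo1* (an exonuclease), *Blm* (a helicase) and *Tipin* (a fork protection factor) had 4.40, 2.84 and 2.23. *Usp1*, a deubiquitinase that acts on PCNA, and *Wdr76* had 1.93 and 1.96. *Ubr7* (chromosome 12, 102757967 to 102777707), a ubiquitin ligase family member, was second lowest of those with enough UMIs, at 1.32 (0.87 to 1.74). In the group around cyclin E, *Ccne1* and *Ccne2*, the cyclins of the G1/S step, had ratios of 4.74 and 3.93, and *Dtl* (chromosome 1, 191537356 to 191575544), the substrate receptor of a ligase that works on chromatin-bound PCNA, had 4.41 (3.97 to 4.83).

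The promoters were searched for short words as a description, without relating a word to a gene's level. RefSeq windows (GRCm38.p6) from 250 bases before to 50 bases after the start site were found for 31 of the 41. The E2F words TTTCCCGC, TTTCGCGC, TTTGCCGC and TTTGGCGC were searched on both strands, where neighbouring matches can overlap. A word was present in 13 of the 35 member windows (37.1%), against 2.26% of all 32851 windows. It was present in 14 of the 53 windows (26.4%) of other replication genes, and in 3.12% of the 32 windows found for 30 of 33 G2/M genes not used in the gate. The cell cycle homology words TTTGAA and TTCGAA stood in 7 of the 35 member windows and in 19.2% of all windows, and in 81.2% of the G2/M windows. A word in a window is a match of letters and not a measured site. The 150 bases before the start site are shown for 3 named members that hold an E2F word there, with the words in capitals. *Mcm6* was chosen as the lowest in the comparison of libraries, *Dtl* as the highest, and *Hells* as one of the 10 with most UMIs. The stretches are chr1:128359706-128359855 on the minus strand, chr1:191575545-191575694 on the minus strand and chr19:38930840-38930989 on the plus strand.
Mcm6: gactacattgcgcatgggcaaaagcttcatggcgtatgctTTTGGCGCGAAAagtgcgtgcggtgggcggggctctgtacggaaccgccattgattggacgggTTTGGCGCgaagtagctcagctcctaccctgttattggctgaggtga
Dtl: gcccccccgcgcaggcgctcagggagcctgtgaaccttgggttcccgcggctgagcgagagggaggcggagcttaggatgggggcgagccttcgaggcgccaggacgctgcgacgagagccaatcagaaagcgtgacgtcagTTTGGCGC
Hells: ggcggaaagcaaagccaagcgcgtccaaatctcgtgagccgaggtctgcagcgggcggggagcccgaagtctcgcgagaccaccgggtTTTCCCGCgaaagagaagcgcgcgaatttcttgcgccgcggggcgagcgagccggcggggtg

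Cycling cells of the other lineages were higher too, by amounts that differed. In the library labelled WT, the summed level in cycling over non-cycling cells had a log2 ratio of 2.36 in macrophages and monocytes (345 cycling cells), 2.27 in T and NK cells (70), 2.25 in endothelial cells (138) and 2.83 in mesenchymal cells (38). It was 2.08 in B and plasma cells (25), 2.17 in dendritic cells (37) and 3.05 in neutrophils (18), and in the library labelled KO it was 2.34 in macrophages and monocytes (12) and 3.39 in mesenchymal cells (13). Macrophages and monocytes were the one group in which all 41 had enough UMIs, and 39 of them were higher by 1 log2 unit or more, against 6.23% of 12390 genes. The 2 below that were *Ubr7* at 0.59 and *Ung* at 0.62. *Rrm2* had the highest ratio there, from 2.38 to 124 CPM, and in KO alveolar cells the highest of the 31 with enough UMIs. In endothelial cells 23 of 26 passed 1 log2 unit, against 5.29% of all genes, and in T and NK cells 22 of 24, against 8.06%. In dendritic cells 31 of 31 did so, against 6.80%, and in mesenchymal cells 11 of 11, against 4.87%. The order of the ratios in KO alveolar cells and in WT macrophages and monocytes was alike, with a Spearman rho of 0.82 over 31 members, 0.79 with endothelial cells over 25, and 0.41 with dendritic cells over 28. These points share genes and the gate and are given as a description. In every lineage the minimum works on the pooled count, so which members pass depends on their level in both states. It left out no member in macrophages and monocytes. In endothelial cells the 15 members left out had ratios of 1.92 to 5.79, against a median of 1.92 for those that passed.

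**Figure D2:**
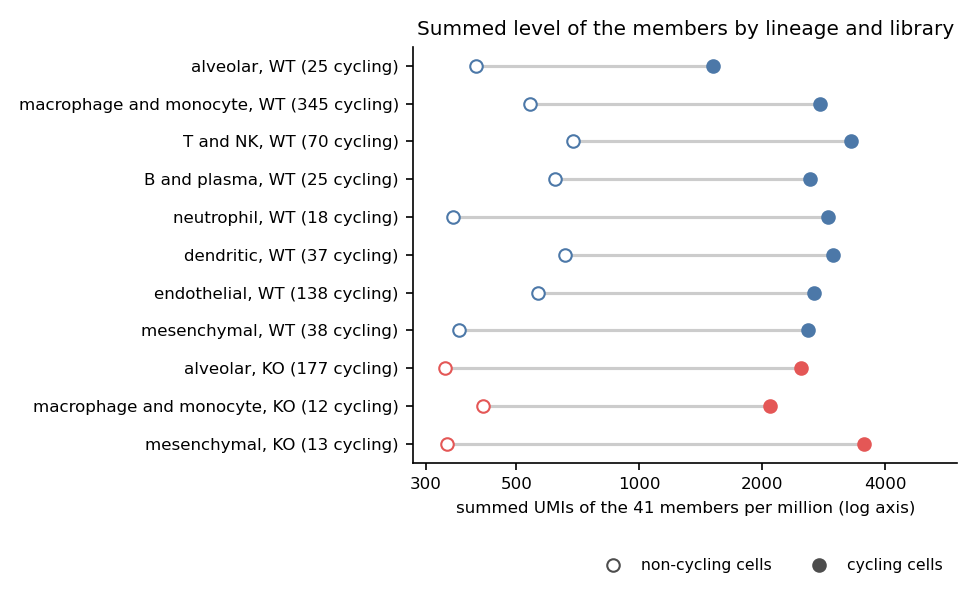
Summed CPM of the 41 genes, on a log axis, in non-cycling (open) and cycling (filled) cells of each lineage with at least 10 cycling cells, in the libraries labelled WT (blue) and KO (red). The WT alveolar cells have the lowest cycling level of the groups drawn, 1515 CPM, while the other filled points lie between 2096 and 3548 CPM.

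The WT alveolar cells had the smallest ratio of the lineages given, with an interval that overlapped that of B and plasma cells (1.91 to 2.24), and the value moved with the cells kept. Their non-cycling level was 398 CPM, between that of mesenchymal cells (363) and macrophages and monocytes (540), but their 25 cycling cells reached 1515 CPM, a log2 ratio of 1.93 (1.74 to 2.12). Of the 25 cells, 14 carried 2 or more markers of another lineage. With such cells left out of both the cycling and the non-cycling group, the ratio was 2.42. With thinning to 4000 UMIs it was 2.25. The 3 members with enough UMIs, *Pcna*, *Nasp* and *Slbp*, had ratios of 1.32, 1.18 and 1.20, against 4.77% of 5012 genes higher by 1 log2 unit or more. Against the cycling cells of the 7 other WT lineages, the WT cycling alveolar level was lower by log2 differences from -0.77 (mesenchymal) to -1.13 (T and NK). The KO cycling alveolar level differed from the same 7 by -0.06 to -0.41, and 2 of these intervals, those for mesenchymal cells and for B and plasma cells, held 0. Within the library labelled KO, the alveolar level differed by 0.25 (0.09 to 0.41) from that of 12 cycling macrophages and monocytes. From that of 13 cycling mesenchymal cells it differed by -0.51 (-0.65 to -0.37).

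The libraries differed within cycling alveolar cells. The 41 genes had 258 UMIs in WT, 1515 CPM (1336 to 1712), and 4274 UMIs in KO, 2486 CPM (2412 to 2561), a log2 ratio of 0.71 (0.53 to 0.90), KO over WT. Of 30 members with enough UMIs, 10 were higher in KO by 1 log2 unit or more and 0 lower, against 6.88% and 5.13% of 4871 genes, and their median was 0.68 against -0.10 for all genes. The ratio was above 0 for 29 of the 30, against 2138 of the 4871 genes. The minimum works on the pooled count, which is mostly KO. *Dtl*, *Pold3*, *Ccne2* and *Wdr76*, with 2 WT UMIs each, and *Gins2*, with 3, passed it through a high KO count. All of these are among the 10 that were higher. The minimum thus tilts the counts and the median of members that passed toward KO, and they are a description. The summed level of all 41 does not use the minimum. The interval lay above 0 for 6 single members, *Pcna*, *Tyms*, *Rrm1*, *Rrm2*, *Atad2* and *Pola1*, and held 0 for the other 35. The share of all genes with an interval above 0 was not computed, so this count gives no comparison with other genes. Because *Pclaf* was not lower in these cells of the library labelled KO, the direction is that of the labels.

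The cells behind the WT value were few. A WT cell held between 0 and 46 member UMIs with a median of 4, and the 3 richest of the 25 cells held 45.7% of them. A KO cell held 0 to 113 with a median of 9, and the 3 richest of the 177 held 7.35%. These shares are not comparable, because 3 cells are a larger part of 25 than of 177. The member UMIs are not matched for depth, with medians of 6087 UMIs per WT cell and 9379 per KO cell. As CPM, the medians per cell were 892 in WT and 1214 in KO. The 14 WT cells with 2 or more markers of another lineage compare with 18 of the 177 KO cells. The 13 immune markers summed to 1286 CPM in WT but 204 CPM in KO, with 12 of 13 detected in each. *Lcp1* alone gave 235 CPM of the WT sum and 142 CPM of the KO sum. In non-cycling alveolar cells the 13 summed to 635 CPM in WT and 161 CPM in KO, so the libraries differed there too. The 9 secretory airway markers summed to 1486 CPM in WT and 34431 CPM in KO, nearly all of it *Scgb1a1* (1468 and 33377 CPM). In non-cycling alveolar cells the same 9 summed to 34250 CPM in WT and 36237 CPM in KO, so the WT cycling cells stood apart. Another lineage here means immune, endothelial, mesenchymal or mesothelial, and airway markers were not used to leave out cells. Without the cells that carried 2 or more markers of another lineage the log2 ratio was 0.32 (0.07 to 0.58), over 11 WT cells. With a second random thinning, which changed the cells that passed the gate, it was 1.11 (0.87 to 1.36) over 21 WT cells, and with thinning to 4000 UMIs it was 0.29 (0.10 to 0.48) over 17. In cells gated as AT2 alone it was 0.82 (0.60 to 1.04).

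**Figure D3:**
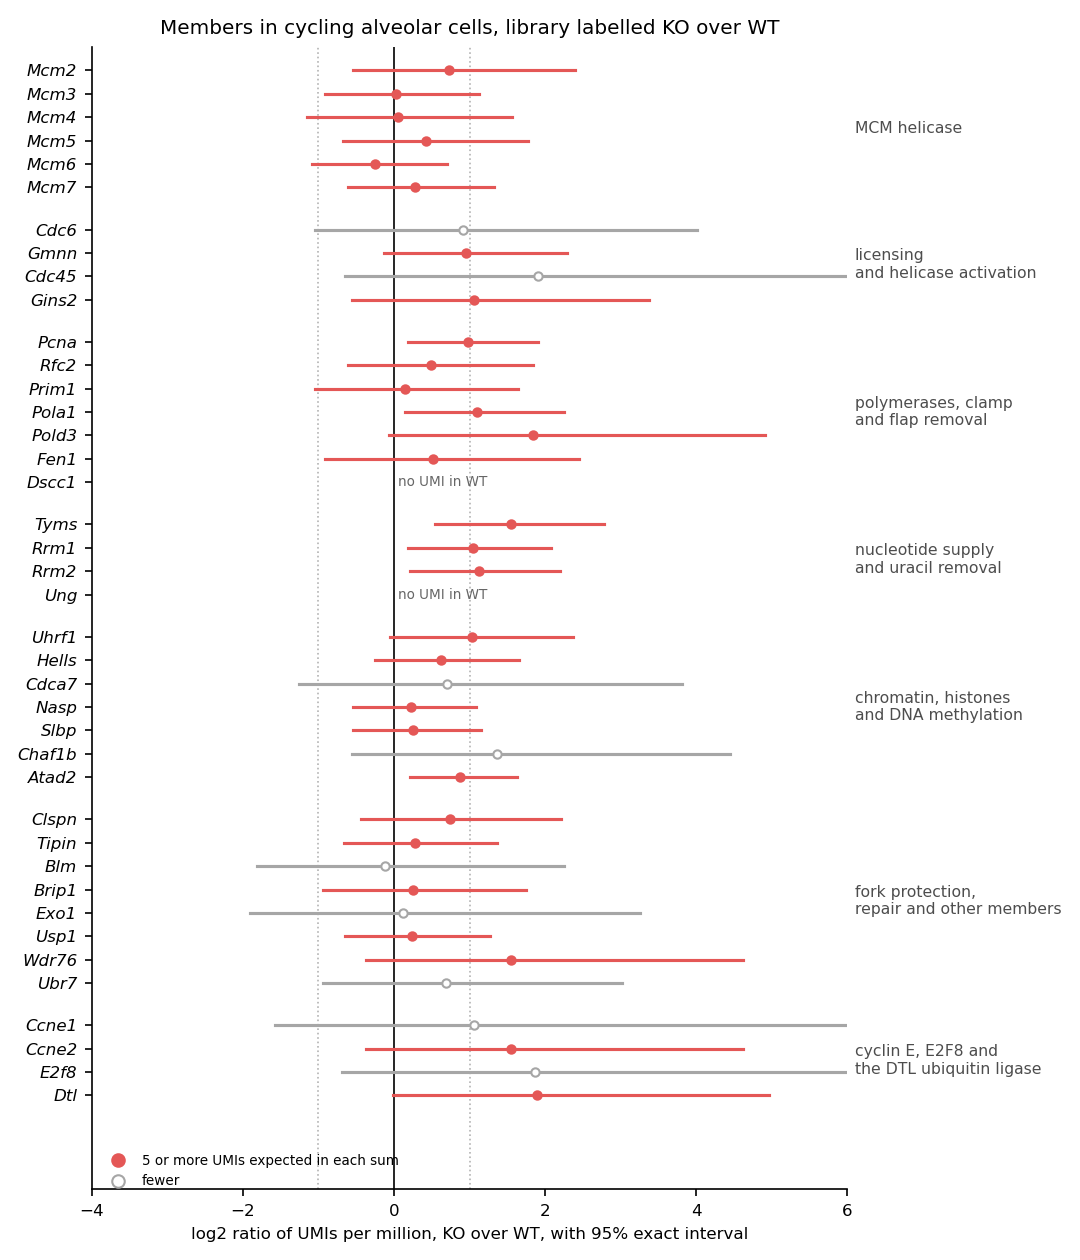
Log2 ratio of CPM in cycling alveolar cells, library labelled KO over WT, for 40 of the 41 genes by role, with exact 95% intervals (cut at -4 and 6). Red points have 5 or more UMIs expected in each sum and grey open points fewer; dotted lines mark 1 log2 unit, and 2 genes had no WT UMI. Most points lie to the right of 0, and the 6 helicase genes lie closest to it as a group.

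The helicase genes differed least. *Mcm6* (chromosome 1, 128331590 to 128359664) was at 76.4 CPM in WT against 64.0 CPM in KO, a log2 ratio of -0.26 (-1.09 to 0.70), and *Mcm3* (chromosome 1, 20802968 to 20820312) and *Mcm4* (chromosome 16, 15623897 to 15637400) had ratios of 0.03 and 0.06. These are the 3 lowest of the 30. The 6 summed to 305 CPM in WT against 343 CPM in KO, a log2 ratio of 0.17 (-0.24 to 0.61).

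The nucleotide supply genes differed more, with sums of 170 and 409 CPM in the WT and KO cells and a log2 ratio of 1.26 (0.73 to 1.85). *Tyms* had 8 WT UMIs in 6 of 25 cells, 47.0 CPM, and 236 KO UMIs in 102 of 177 cells, 137 CPM, a ratio of 1.55 (0.54 to 2.78). At 2000 UMIs per cell *Tyms* had a UMI in 0 of 25 WT cells, a share of up to 13.7%, and in 22.6% of KO cells (16.7 to 29.5) and 2.73% of KO non-cycling cells. These shares count cells with a UMI at that depth and do not limit how many cells express the gene. *Rrm1* was at 64.6 and 134 CPM, a ratio of 1.05 (0.18 to 2.07), and *Rrm2* at 58.7 and 128 CPM, a ratio of 1.12 (0.22 to 2.20), but -0.087 when the UMIs of the thinned cells were summed. For *Rrm2* the share of thinned cells did not follow the level, with 5 of 25 WT cells (interval of the share 6.83 to 40.7%) and 14.7% of KO cells (9.83 to 20.8). *Ung* had no UMI in the 25 WT cells and 18 in KO, 10.5 CPM, which is under the 17.6 CPM that a WT count of 0 allows.

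Polymerase and clamp genes had a log2 ratio of sums of 0.90 (0.45 to 1.39). *Pcna* was at 76.4 CPM in WT, from 13 UMIs in 7 cells, and at 151 CPM in KO, a ratio of 0.98 (0.18 to 1.91). *Pola1* was at 52.9 and 113 CPM, a ratio of 1.10 (0.15 to 2.25), and the part that the differing share of Xist-positive cells may have in this X-linked gene was not tested. *Pold3* had 2 WT UMIs and 72 KO UMIs, a ratio of 1.83 (-0.07 to 4.91), one of the 3 highest. *Dscc1*, like *Ung*, had no WT UMI. The licensing genes gave 1.07 (0.27 to 2.00) in sum, with *Gmnn* at 41.1 and 79.7 CPM.

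Chromatin members gave 0.63 (0.28 to 1.00) in sum. *Atad2* was at 112 CPM in WT, from 19 UMIs in 12 cells, and at 205 CPM in KO, a ratio of 0.88 (0.21 to 1.62), but at -0.13 without the cells that carried markers of another lineage. *Nasp* (88.1 and 103 CPM) and *Slbp* (82.2 and 97.7 CPM) differed by 0.22 and 0.25, *Hells* by 0.62 and *Uhrf1* by 1.03, each with an interval that held 0. Fork protection and repair genes gave 0.44 (0.01 to 0.90). The group of cyclin E, *E2f8* and *Dtl* rested on 6 WT UMIs and gave 1.66 (0.52 to 3.13), with *Dtl* at 1.89 (-0.01 to 4.96) and *Ccne2* (chromosome 4, 11191351 to 11204779) at 1.55 (-0.37 to 4.63), both from 2 WT UMIs.

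Gene lists fixed beside the members were compared the same way. For 33 G2/M genes outside the gate the sums were 3224 and 3392 CPM, a log2 ratio of 0.07 (-0.05 to 0.20), with a median of 0.12 over 31 genes. Of these 31, 3 were higher by 1 log2 unit or more and 0 lower. For 48 further replication genes, such as origin recognition and polymerase epsilon subunits, 22 had enough UMIs, 5 were higher by 1 log2 unit or more and 1 lower, and the median was 0.68. For 29 E2F, DREAM and G1 regulators the median was 0.31 over 16 genes, with 1 higher by that much and 1 lower. Of all 4871 genes with enough UMIs, 6.88% were higher and 5.13% lower by that much. The log2 ratio of sums was 0.46 (0.26 to 0.65) for the further replication genes and 0.03 (-0.16 to 0.22) for the regulators. For the 12 gate genes it was 0.29 (0.15 to 0.43), but the cells of both libraries were chosen on these genes. The 33 G2/M genes share their phase with the gate, so their ratio is not free of it either. In non-cycling alveolar cells the 41 members summed to 398 CPM (WT) and 336 CPM (KO), and the median over 34 of them, -0.21, was close to the -0.22 of all 13350 genes. There 2 members were higher by 1 log2 unit or more and 1 lower, against 1.54% and 6.57% of all genes. In cycling macrophages and monocytes (345 WT and 12 KO cells) the log2 ratio of sums was -0.40 (-0.56 to -0.25), and in cycling mesenchymal cells (38 and 13) 0.46 (0.29 to 0.62), so its sign was not shared by the lineages.

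The balance between the S phase genes and the G2/M genes put the same counts on a scale that does not use library depth. The cells were gated on mitotic genes, so the G2/M part of this balance is not free of the gate. WT cycling alveolar cells held 0.470 member UMIs per G2/M UMI (0.404 to 0.546) and KO cells 0.733 (0.704 to 0.762). AT2 cells alone gave 0.367 and 0.725, a second random thinning gave 0.278 in WT, and a gate on *Mki67* or *Top2a* gave 0.710 and 0.873. Macrophages and monocytes had 0.788 in WT and 0.599 in KO (12 cells), the opposite order. Mesenchymal cells had 0.651 in WT and 0.779 in KO (13 cells), the same order as alveolar cells. B and plasma cells (1.43) and neutrophils (1.39) had the most member UMIs per G2/M UMI, from 25 and 18 cells.

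**Figure D4:**
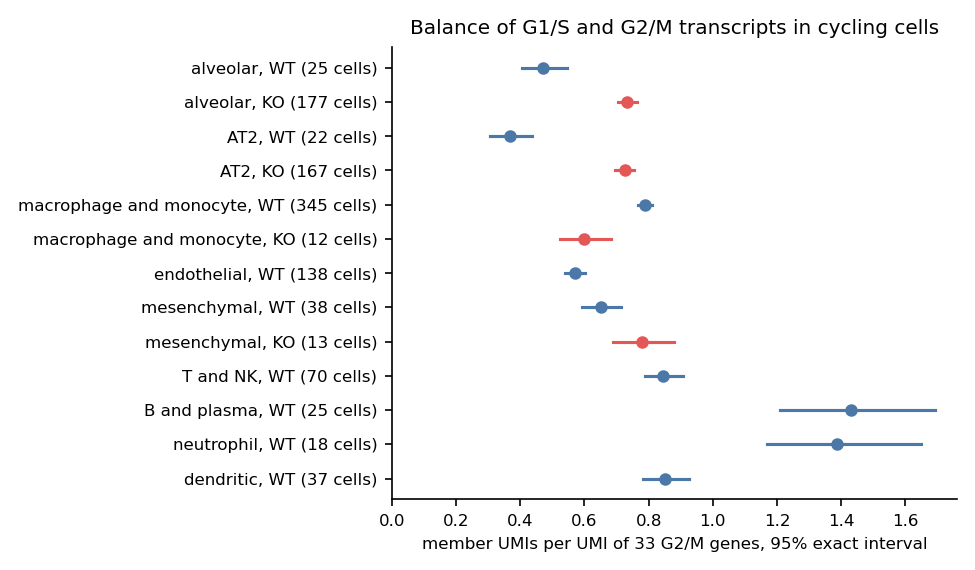
UMIs of the 41 members per UMI of 33 G2/M genes outside the gate in cycling cells, with exact 95% intervals, for groups of at least 10 cells in the libraries labelled WT (blue) and KO (red). WT alveolar and AT2 cells lie lowest, and B and plasma cells and neutrophils highest.

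Matched at 2000 UMIs, single cells differed in the same direction. A cycling alveolar cell showed between 0 and 11 of the 41 members in WT, with a median of 1, and between 0 and 14 in KO, with a median of 2. None was seen in 44.0% of WT cells (24.4 to 65.1) and 19.2% of KO cells (13.7 to 25.8), intervals that overlap. At least 4 were seen in 5 of 25 WT cells (interval of the share 6.83 to 40.7%) and 40.7% of KO cells (33.4 to 48.3), intervals that overlap. In non-cycling alveolar cells the share with at least 4 was 1.56% and 1.40%. There no member was seen in 48.8% of WT cells (45.4 to 52.3) and 57.4% of KO cells (56.3 to 58.5), with medians of 1 and 0. The interval of the WT cycling share with none holds the WT non-cycling share, so this measure does not separate the 2 states in WT.

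Cells with many members were often below the mitotic gate. Of 218 KO alveolar cells with at least 4 members, 112 had no gate gene and 34 had 1, so 67.0% (60.3 to 73.2) lay outside the cycling group. The share was 77.3% (54.6 to 92.2) of 22 WT alveolar cells, 51.7% of 391 WT macrophages and monocytes and 71.7% of 226 WT endothelial cells. Among KO alveolar cells the share with at least 4 members went from 25.9% at 2 gate genes to 40.3% at 3 to 4 and 57.7% at 5 or more. In WT macrophages and monocytes it was 48.9%, 58.5% and 55.4%. The cycling group, as gated, leaves those cells out.

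**Figure D5:**
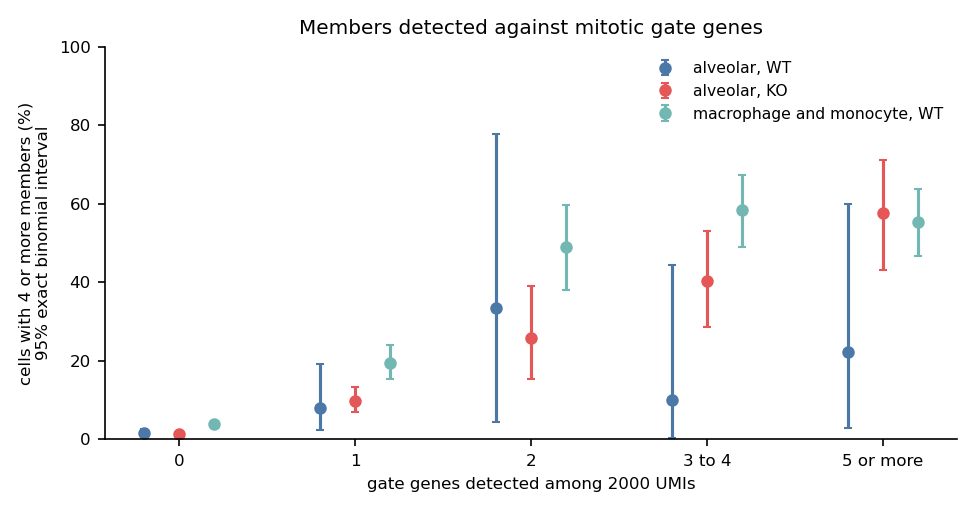
Percent of cells, thinned to 2000 UMIs, in which at least 4 of the 41 members had a UMI, by the number of 12 mitotic gate genes detected, for alveolar cells labelled WT and KO and for WT macrophages and monocytes, with exact binomial 95% intervals. The KO alveolar share climbs with each step, and the WT alveolar intervals from 2 gate genes upward, over 6 to 10 cells each, are wide.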

How the data were processed

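For each library the authors deposited 1 matrix of raw UMI counts, genes by barcodes, made with STAR-based Cell Ranger on GRCm38 (mm10). The labels name version 3.1.0 and the matrix headers 5.0.0. Cells between 200 and 5000 detected genes with a mitochondrial share under 20% entered (30187 WT, 15637 KO). Cells were thinned to 2000 UMIs, with shallower ones left out (14298 WT, 2240 KO). A broad class (epithelial, immune, endothelial, mesenchymal or mesothelial) needed at least 3 of its markers and a larger share of its list than any other. Kinds within the epithelial and immune classes, such as AT2 cells or neutrophils, needed at least 2 and the larger share among kinds. Full UMIs were then summed per group and given as CPM with exact Poisson intervals, shares with Clopper-Pearson intervals, and log2 ratios with the exact conditional interval for a pair of Poisson counts. The level that a count of 0 allows was taken as 3 counts. In the counts of genes past the fold, 0.5 was added to both sums where either was 0. A ratio entered a count where at least 5 UMIs were expected in the smaller sum, and a difference of 1 log2 unit counted as past the fold. UMIs count molecules once whatever their length. No doublets were removed in the main values; Scrublet (scanpy 1.11.5) called 7.76% of WT and 2.70% of KO cells. The interval code was tested on simulated data. Positions are from GENCODE (GRCm38), promoters from RefSeq. Genes named in full are the 10 members with most UMIs in cycling alveolar cells and the 3 lowest and 3 highest of each comparison; others were chosen after their values were seen. The members, roles and lists were chosen with earlier results of these data known. Alternatives changed depth of thinning, gate, filters, doublets, mixed cells, denominator, TMM factors (edgeR), weighting and the minimum. Single values of 1 member are not reported here, and it stays in the counts and sums.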

Additional observations from a re-analysis of the deposited data

How the results depend on the processing

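No paired analysis was possible because each genotype has 1 library, and leaving out a replicate was not possible for the same reason. The 25 WT cells, and which cells pass the gate after thinning, limit the comparison of libraries more than UMI counting does. Cells under 2000 UMIs are outside the main values of gated cells. With thinning to another depth, cells under that depth were left out. The *Xist* and doublet shares are over all kept cells. Across all alternatives run, the log2 ratio of sums in cycling alveolar cells, KO over WT, kept its sign and lay between 0.29 and 1.19, and the cycling over non-cycling ratios of the 4 groups recomputed also kept theirs. The cause of the moves below was not tested. For KO over WT, the ratio moved from 0.71 to 1.11 with thinning to 1000 UMIs, 0.29 with 4000, 1.19 with at least 3 gate genes, 0.43 with a gate on *Mki67* or *Top2a*, 0.32 without cells carrying markers of another lineage, 1.11 with a second thinning, 1.05 from thinned UMIs and 0.99 with TMM factors (edgeR 4.0.16), which shift every gene by 0.28. The count of members higher by 1 log2 unit, 10, became 5 with thinning to 4000, 17 with at least 3 gate genes, 3 without cells carrying other markers (13 genes with enough UMIs), 3 from thinned UMIs (6 genes), 5 with cells weighted equally, 5 with at least 10 UMIs expected and 16 with no minimum. The share of all genes past the fold was not recomputed in these settings, so these counts give no comparison with other genes. The count with no minimum takes in *Ung* and *Dscc1*, which had no WT UMI, through the 0.5 added. Among single genes with a main interval above 0, *Atad2* turned to -0.13 without cells carrying other markers and *Rrm2* to -0.087 from thinned UMIs. Of the named genes whose main interval held 0, *Nasp*, *Hells*, *Mcm3*, *Mcm4*, *Cdca7* and *Ubr7* fell below 0 in some settings. The lowest was *Cdca7* at -1.82, and *Mcm6* rose as high as 0.13. Member UMIs per G2/M UMI in WT were 0.284 with 1000 UMIs, 0.312 with at least 3 gate genes, 0.710 with *Mki67* or *Top2a*, 0.278 with a second thinning, 0.367 in AT2 cells and 0.343 from thinned UMIs. In KO they were 0.518 with 1000, 0.881 with 4000, 0.614 with at least 3 gate genes, 0.873 with *Mki67* or *Top2a* and 0.682 with no upper gene limit, so KO stayed above WT in each pair of settings. The share of cells with at least 4 members was 4.35% in WT and 25.5% in KO with 1000 UMIs, and 41.2% and 50.4% with 4000. The KO share of cycling cells was 1.26% with 1000, 3.12% with 4000, 1.39% with at least 3 gate genes and 2.41% with *Mki67* or *Top2a*. Cycling over non-cycling in KO alveolar cells was 2.82 with 1000, 3.03 with at least 3 gate genes, 2.68 with *Mki67* or *Top2a*, 2.83 with the reduced denominator and 2.78 with TMM. In WT alveolar cells it was 1.41 with 1000, 2.25 with 4000, 1.59 with at least 3 gate genes, 2.42 without cells carrying other markers, 1.47 with a second thinning, 1.56 from thinned UMIs, 1.70 with TMM and 2.13 with cells weighted equally. In macrophages and monocytes it was 2.17 with 1000, 2.11 with *Mki67* or *Top2a*, 2.29 with no upper gene limit, 2.44 without doublets, 2.43 without cells carrying other markers, 2.42 with a second thinning, 2.44 from thinned UMIs and 2.45 with cells weighted equally. In endothelial cells it was 2.41 with 1000, 2.18 with 4000, 2.44 with at least 3 gate genes, 2.15 with *Mki67* or *Top2a*, 2.12 with no upper gene limit, 2.41 without doublets and 2.75 without cells carrying other markers.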
